A study of Solanum tuberosum with 2 samples.

Results

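The genes described here are 5 of the 40430 genes quantified in in vitro potato: 4 genes named as lipid transfer proteins and a transporter named ABC transporter G family member 11-like (ABCG11-like). They were taken by their identifiers, with the names given in the annotation of a companion ultrasonication study of the same group. They were chosen by their names together with their reads in these same libraries, so their differences are a description and no test is attached to them. The data were 2 mRNA libraries of wild type potato plants (cv. Desirée). Intact plantlets aged 4 w gave the uncut library, and nodal explants bearing a leaf, cut from such plantlets and taken at 0 h, gave the cut library. By the companion study's methods 3 biological replicates were pooled into 1 library on each side, so no difference between the libraries has a replicate check. The labels name leaf as the tissue of both samples, whereas the treatment was described as whole plantlets on one side and nodal segments on the other, so cutting and a difference in organs cannot be told apart here.

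Non-specific lipid transfer proteins (nsLTPs) are small, secreted, cysteine-rich plant proteins that hold lipids in a hydrophobic cavity. They are thought to take part in carrying wax and cutin monomers through the wall of epidermal cells, and some members act in defence or in vascular development. ABCG11 of Arabidopsis is a half-size transporter of the plasma membrane of epidermal cells that exports surface lipids to the cuticle, so in the usual scheme the transporter acts before the lipid transfer proteins in the path to the plant surface.

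Genes of the nsLTP 2-like kind can be close in sequence, which matters for how their reads are assigned. The RT-qPCR primers of the companion study are shown because they give a glimpse of this. Those designed for PGSC0003DMG400002471, a member on chromosome 1, and those listed for PGSC0003DMG402031237, the gene on chromosome 10 that contains the member PGSC0003DMG401031237, differ at only a few bases. They are written 5′ to 3′ with the differing bases in capitals.
PGSC0003DMG400002471 forward: ctccAtgcctcccTtatct
PGSC0003DMG402031237 forward: ctccTtgcctcccAtatct
PGSC0003DMG400002471 reverse: ttgcccacatTaatgcct
PGSC0003DMG402031237 reverse: ttgcccacatCaatgcct
Counted from the 5′ end, the forward primers share 17 of 19 bases and differ by A5T and T14A, and the reverse primers share 17 of 18 bases and differ by T11C. The base of PGSC0003DMG400002471 is given first. By the methods of the companion study, only uniquely aligned reads were counted, so reads that fitted both copies equally would be missing from the values of either gene. Only these primer sites were compared, and whether any reads were lost in this way was not tested.

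Expression was deposited as log2 RPM, the reads counted over the exons of a gene scaled to the size of the library. Whole reads were recovered from these values, and 100% of 14627 tested values (uncut) and of 16642 (cut) lay within 0.05 of a whole read. The scaling totals were 37955480 reads (uncut) and 33850940 reads (cut). Intervals are exact 95% intervals that take every read as independent, so that only counting error is covered, and a count of 0 is taken to allow up to 3 reads, which equals 0.0790 RPM (uncut) and 0.0886 RPM (cut). Since neither exon lengths nor a genome were used, the levels of different genes are not compared. A gene was called higher or lower in the cut library when it had 50 reads or more over both libraries and its difference reached 2 on the log2 scale. Of the 21688 genes with enough reads, 15.6% were called in either direction, 8.25% as higher and 7.35% as lower. Higher genes were thus 52.9% of those called, and 66.8% when the libraries were scaled by the median ratio of genes. The median difference of these genes, cut minus uncut, was -0.33, and the value relative to this median is given beside the difference for each member called. A pool of RNA does not tell fewer cells of a type from less RNA per cell.

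Of the 5 members, 2 were higher in the cut explants, 2 were lower, and 1 had too few reads for the rule and was seen only in the uncut library. These calls come from the contrast in which the members were chosen, and nothing is read from them against the 15.6% of all genes.

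**Figure D1:**
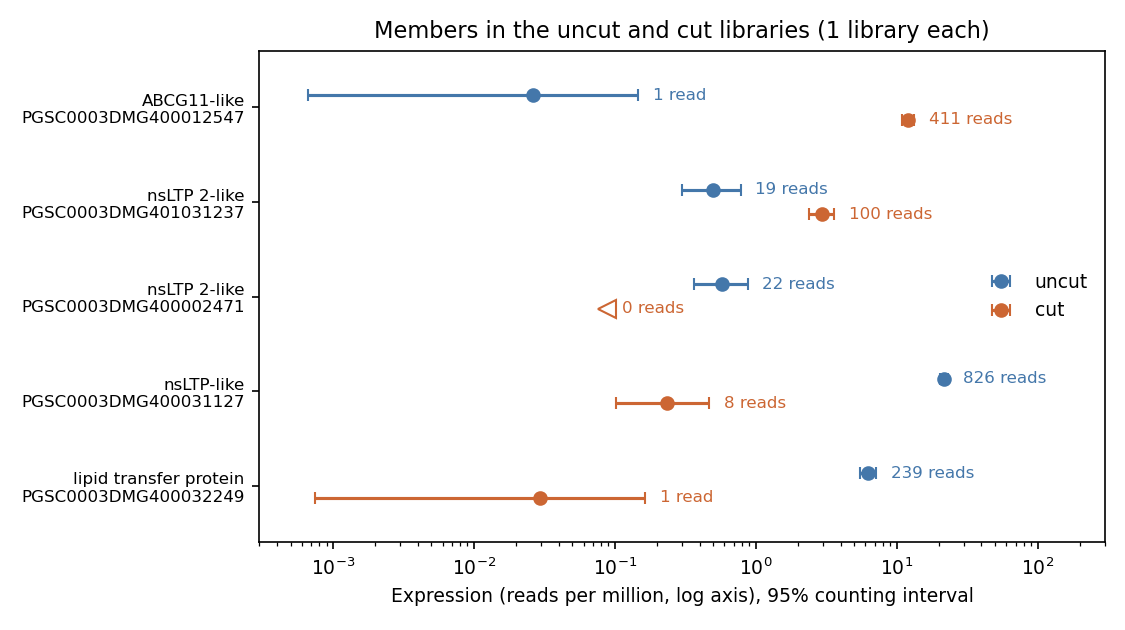
Expression of the 5 members in the uncut (blue) and cut (orange) libraries, in RPM on a log axis. Points are the values of 1 library, bars the 95% counting interval, numbers the reads, and the open triangle the limit of 3 reads for a count of 0. The ABCG11-like gene stands at 1 read against 411, while lipid transfer protein stands at 239 reads against 1.

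The ABCG11-like transporter (PGSC0003DMG400012547, chromosome 1, 82091212 to 82095310 on the minus strand in SolTub 3.0) was nearly absent from the uncut plantlets and clearly detected in the cut explants. It had 1 read in the uncut library, or 0.0263 RPM (95% interval 0.00067 to 0.147), and 411 reads in the cut library, or 12.1 RPM (11 to 13.4). These intervals did not overlap, but they cover counting error only, and the gene was chosen with its values known. The difference was 8.85 on the log2 RPM scale (6.36 to 14.16), or 9.18 relative to the median of all genes, and the width of its interval comes from the lone read of the uncut library. As a ratio this is 461-fold higher, with a counting interval that begins at 82.3-fold, or at 48.8-fold if both reads of each pair had been counted and 1 is kept. Among the 21688 genes, 20 had a higher difference. Only 12 genes of the whole table, this one included, had at most 1 read in the uncut library and 411 or more in the cut library, a count chosen after its values were seen. The gene next to it, PGSC0003DMG400012597, lies 132 bases away on the same strand and had 13 and 14 reads, a difference of 0.27 (-0.93 to 1.48). PGSC0003DMG400012546 on the other side had 0 and 1 read, too few to compare.

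The gene named lipid transfer protein (PGSC0003DMG400032249, chromosome 9, 53969422 to 53971729, minus strand) showed the opposite picture. Its best protein match in the annotation is a potato protein named At5g64080-like. At5g64080 of Arabidopsis encodes a xylogen-type lipid transfer protein, a class named for its part in the differentiation of water-conducting cells in Zinnia. There were 239 reads in the uncut library, or 6.30 RPM (5.52 to 7.15), and 1 read in the cut library, or 0.0295 RPM (0.00075 to 0.165). The difference of -7.74 (-13.05 to -5.24), or -7.40 relative to the median, had 0 of the 21688 genes below it on the deposited log2 scale, where a gene without reads stands at 0.9 read. This order depends on the scale, since nsLTP-like was lower on log2(RPM + 0.1), at -6.02 against -5.63. Expressed as a ratio the level was 213-fold lower in the cut library, with a counting interval that begins at 37.9-fold, or at 22.4-fold with 1 read per pair. It was the 1 gene of the table with at least 239 uncut and at most 1 cut read, a count chosen after its values were seen. The nearest gene before it, PGSC0003DMG400032250, lies on the same strand and had 118 and 114 reads, and PGSC0003DMG400032260 on the other side had 0 in both libraries.

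The gene named non-specific lipid-transfer protein-like (PGSC0003DMG400031127, chromosome 1, 67139256 to 67140626, plus strand) was also lower in the cut explants. Its reads in the uncut library numbered 826, or 21.8 RPM (20.3 to 23.3), against 8 reads, or 0.236 RPM (0.102 to 0.466), in the cut library. Its difference was -6.52 (-7.74 to -5.54), or -6.19 relative to the median, and 17 of the 21688 genes had a lower one. This was a level 92.1-fold lower in the cut explants (interval 46.5 to 214, or beginning at 35.7-fold with 1 read per pair). The gene 1460 bases before it on the same strand, PGSC0003DMG400031128, had 793 and 930 reads, a difference of 0.40 (0.26 to 0.53). The next gene on the other side, PGSC0003DMG400031126, lies 644 bases away on the same strand and had 0 reads in both libraries.

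**Figure D2:**
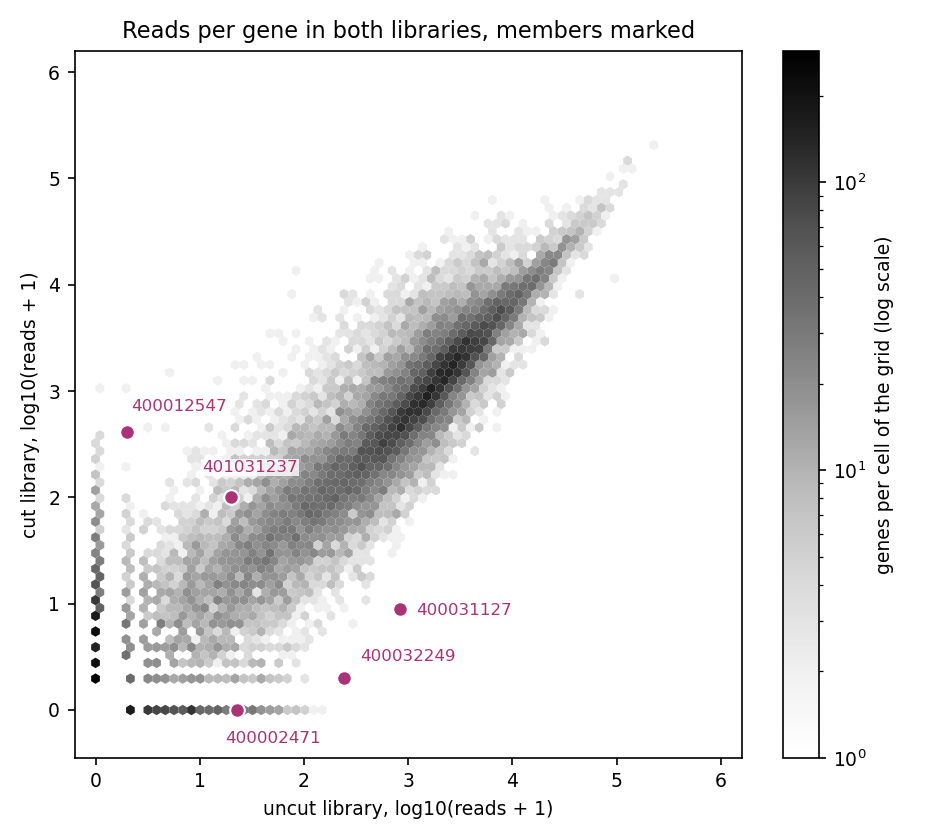
Reads per gene in the uncut (x axis) and cut (y axis) libraries as log10(reads + 1), with the number of genes per grid cell in grey and the members in purple, labelled by the last digits of their identifiers. Genes without reads in both libraries are left out. The ABCG11-like gene (1 and 411 reads), lipid transfer protein (239 and 1) and nsLTP-like (826 and 8) lie at the rim of the cloud, and the nsLTP 2-like members lie nearer to it.

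Both nsLTP 2-like members had few reads, and they differed in opposite directions. PGSC0003DMG400002471 (chromosome 1, 50944487 to 50945282, plus strand) had 22 reads in the uncut library, or 0.580 RPM (0.363 to 0.878), and 0 reads in the cut library, which allows up to 0.0886 RPM there. With the count of 0 taken as 3 reads in that library and the 22 reads as exact, the level was 6.54-fold lower in the cut explants. The exact interval, which also takes in the error of the 22 reads, begins at 4.89-fold lower, or at 2.24-fold with 1 read per pair counted. It did not reach the minimum of 50 reads and is therefore not among the genes called. Its best protein match in RefSeq (LOC102585136) was also that of PGSC0003DMG400012837 on chromosome 10, which had 5 reads (uncut) and 0 (cut), so both genes with this match had reads in the uncut library alone. The 5 reads of the second gene are close to the limit of 3 reads. The nearest genes of PGSC0003DMG400002471, PGSC0003DMG400002472 and PGSC0003DMG400046842, had 156 and 201 reads and 5 and 0 reads.

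The other copy, PGSC0003DMG401031237 (chromosome 10, 48918720 to 48919070, minus strand), had 19 reads in the uncut library, or 0.501 RPM (0.301 to 0.782), and 100 reads in the cut library, or 2.95 RPM (2.40 to 3.59). It was 5.90-fold higher in the cut explants (interval 3.59 to 10.2). The difference was 2.56 on the log2 scale (1.84 to 3.35), or 2.89 relative to the median, and 1242 of the 21688 genes had a higher one. The whole span of this gene, 351 bases, lies inside that of another gene of the same name and strand, PGSC0003DMG402031237 (48907813 to 48919140), which had 34 and 132 reads and a difference of 2.12 (1.57 to 2.71). Reads in the shared stretch could have been counted for both genes or been split between them, so the rows are not separate evidence. The reads of the outer gene exceeded those of the inner gene by 15 (uncut) and 32 (cut). Beyond the pair, the nearest gene, PGSC0003DMG400006678, had 387 and 178 reads, a difference of -0.96 (-1.22 to -0.70).

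The annotation lists genes because of their response to ultrasound, with cut explants as the control, so it is not a choice made independently of these samples. Among its genes 15 are named as lipid transfer proteins, 4 of them members. Of these 15 genes, 12 had at least 50 reads. Among the 12, 2 were higher (the overlapping pair on chromosome 10), 3 were lower and 7 lay in between, which is 41.7% called against 15.6% of all genes, but the members supply 3 of these 5 calls. Among the 11 other genes, 9 had enough reads, of which 1 was higher and 1 lower. These calls are 22.2% of the 9, against 15.6% of all genes. The higher one is the outer gene of the overlapping pair, which is not separate evidence from the member inside it. The median difference of the 12 genes was -0.04, beside -0.33 for all genes. Of the 12, 6 lay above 0 and 6 below, against 7990 above and 13698 below among the 21688 genes. Summed over the 15 genes, the family stood at 1140 RPM (uncut) and 1082 RPM (cut), a ratio of 0.949 that became 1.20 when the libraries were scaled by the median ratio of genes, an alternative chosen after seeing the data. A single gene, PGSC0003DMG400005731, held 542 RPM (uncut) and 371 RPM (cut) of these sums. PGSC0003DMG400030587 was also lower, at 172 and 25.3 RPM, whereas PGSC0003DMG400011953 was at 78.0 and 184 RPM and PGSC0003DMG400011954 at 78.6 and 273 RPM, so the sums hide differences in both directions. Of these sums, which are not per length, the 4 lipid transfer members held 29.1 RPM (uncut) and 3.22 RPM (cut).

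**Figure D3:**
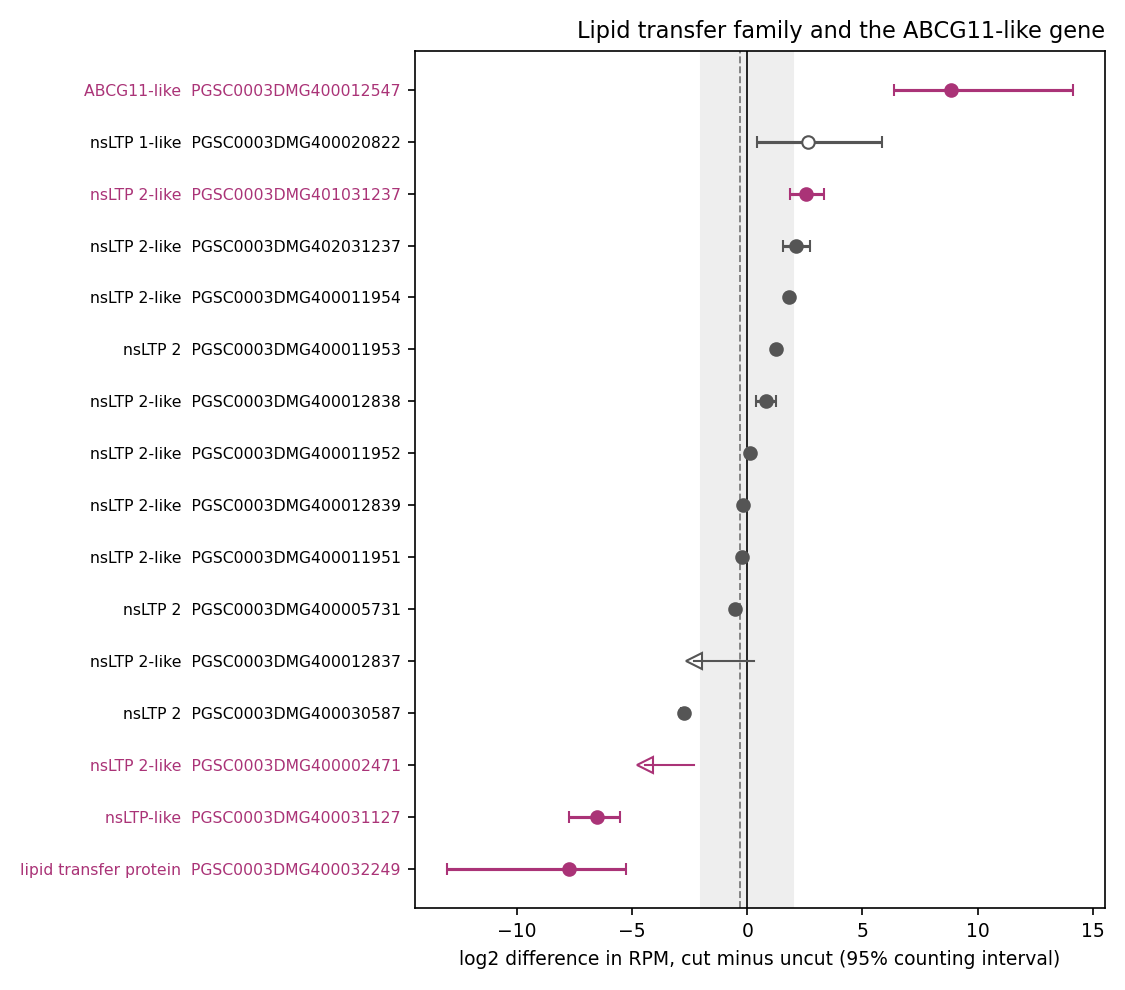
Differences in log2 RPM, cut minus uncut, of the 15 lipid transfer genes and the ABCG11-like gene, with 95% counting intervals (members in purple). Open symbols had under 50 reads, open triangles had 0 reads in the cut library, the grey band spans differences under 2 and the dashed line is the median of all genes, -0.33. Of the 16 genes, 7 lie inside the band, and lipid transfer protein (-7.74) and the ABCG11-like gene (8.85) lie farthest from it on either side.

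Outside the members, the lower gene was PGSC0003DMG400030587 (Non-specific lipid-transfer protein 2, chromosome 5, 3453699 to 3454490). Its reads numbered 6534 (uncut) and 858 (cut), a difference of -2.76 (-2.87 to -2.66) and of -2.43 relative to the median. The other gene of exactly this name, PGSC0003DMG400005731 on chromosome 3, had 20553 and 12573 reads and differed by -0.54 (-0.58 to -0.51), which is -0.21 relative to the median. PGSC0003DMG400020822 (non-specific lipid-transfer protein 1-like, chromosome 6) had 2 and 11 reads, a ratio of 6.17 (1.35 to 57.3), and too few for the rule. The hydrophobic helical domain of the family also occurs in the proline-rich proteins of the DC2.15 kind. Of the 2 genes with this name, PGSC0003DMG400004736 had 155 reads in each library and PGSC0003DMG400039214 had 2095 and 669, a difference of -1.48 (-1.61 to -1.36), and neither was called.

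Lipid transfer genes stood close to each other in 3 runs, taken as genes of the family with at most 100 kb between neighbours, which together held 9 of the 15 genes. The first run lies on chromosome 0, the sequence without an assigned chromosome, from 22059723 to 22128263, and holds 4 genes on 1 strand. The differences were higher toward the end of the run. PGSC0003DMG400011951 had 2192 and 1677 reads (difference -0.22), and PGSC0003DMG400011952 had 1738 and 1671 (0.11). PGSC0003DMG400011953 had 2959 and 6243 reads (1.24), and PGSC0003DMG400011954 had 2982 and 9232 (1.80, interval 1.74 to 1.86). The first of these differences turned to 0.11 when taken relative to the median of all genes, and the last to 2.13, which is past the rule of size. The order along the sequence is a description of 4 genes.

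In the run on chromosome 10 from 13444785 to 13484499, no gene was called. PGSC0003DMG400012839 had 5082 and 4001 reads, a difference of -0.18 that became 0.15 relative to the median. The 76 and 120 reads of PGSC0003DMG400012838 gave 0.82 (0.40 to 1.26), and PGSC0003DMG400012837 had 5 and 0 reads. The remaining run is the overlapping pair that includes the member PGSC0003DMG401031237. No other member had a gene of the family within 100 kb.

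**Figure D4:**
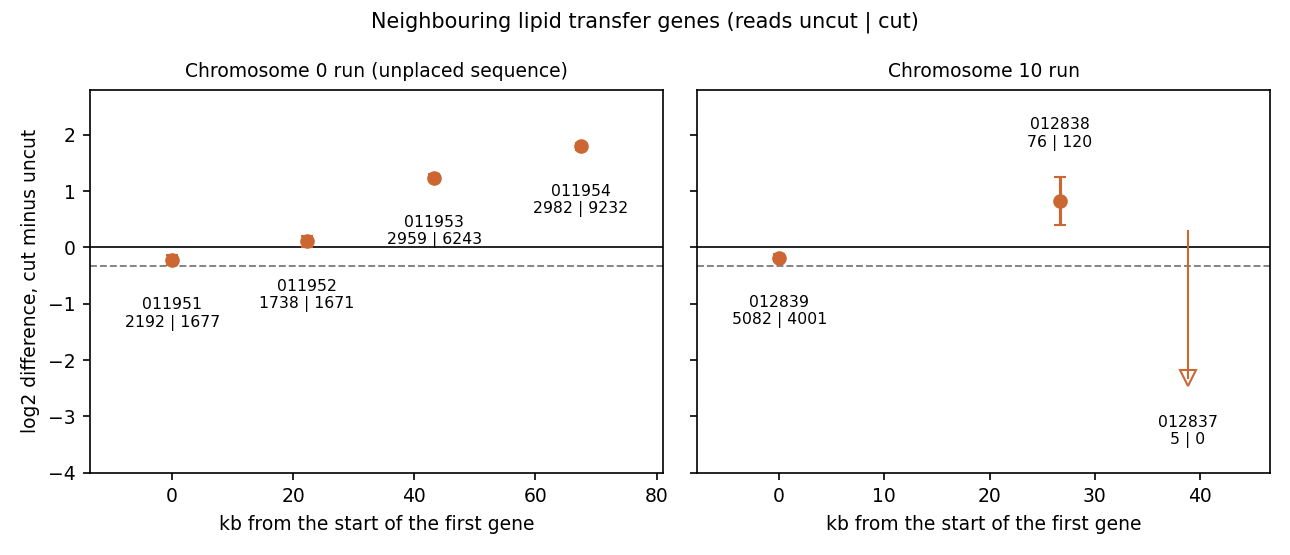
Differences in log2 RPM, cut minus uncut, of the neighbouring lipid transfer genes on chromosome 0 (left) and chromosome 10 (right) against the distance in kb from the start of the first gene. Bars are 95% counting intervals, the open triangle had 0 reads in the cut library, numbers are reads (uncut, cut) and the dashed line is the median of all genes. On chromosome 0 the differences run from -0.22 to 1.80, and on chromosome 10 they were -0.18 and 0.82 for the genes with more reads. The chromosome 10 gene with 5 and 0 reads stood at -2.31, with an interval that reached 0.29.

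A surface lipid list was set beside the transporter. It holds the annotated genes whose names include WSD1, fatty acyl-CoA reductase or GDSL esterase. A part of each gene in surface lipids was taken from its name only and was not tested. The list has 4 genes, and 3 of them had enough reads. GDSL esterase/lipase At5g33370-like (PGSC0003DMG400028703), of a class that includes cutin-forming enzymes, had 123 and 241 reads, a difference of 1.14 (0.82 to 1.46). The reads of GDSL esterase/lipase At2g24560-like (PGSC0003DMG400007815) were 136 and 150, and those of fatty acyl-CoA reductase 3-like (PGSC0003DMG400023759), a class that makes the alcohols of wax, were 43 and 55. None of the 3 was called, beside 15.6% of all genes with enough reads, and so few genes give no result on the list. Their median difference was 0.52, beside -0.33 for all genes. O-acyltransferase WSD1-like (PGSC0003DMG400009124), a class that joins wax esters, had 23 and 5 reads, under the minimum.

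Because the samples may differ in organs, genes with a known place in the plant were followed beside the members. The 3 epidermis genes were a pair named protodermal factor 1-like and epidermis-specific secreted glycoprotein EP1-like. They were well detected in both libraries, with 924 to 2836 reads (uncut) and 1275 to 1770 reads (cut). None of the 3 was called (differences -0.99 to 0.89), beside 15.6% of all genes with enough reads. With 3 genes, nothing is read from this count. Both guard cell genes of the FAMA type, a regulator of stomata in Arabidopsis, had more reads in the cut library, 322 against 120 and 838 against 391. Their differences were 1.59 and 1.26, and neither was called. Among the 21688 genes with enough reads, 7990 lay above 0. The leaf list of 7 chlorophyll a-b binding proteins was detected in both libraries and summed to 205 RPM (uncut) and 120 RPM (cut). Of the 7, 1 was called, as lower, which is 14.3% against 15.6% of all genes. Differences were below 0 for 6 of the 7, and for 13698 of the 21688 genes with enough reads. The gene named CASPARIAN STRIP INTEGRITY FACTOR 2-like (PGSC0003DMG400030948), a peptide that acts on the root endodermis in Arabidopsis, had 12541 reads (uncut) and 876 reads (cut), a difference of -3.67 (-3.77 to -3.58). It was the only gene of its list, and 7.35% of all genes with enough reads were called lower. The part of the organs in the values of the members was not tested.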

How the data were processed

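Messenger RNA enriched from total RNA of potato plantlets (uncut) and explants (cut) was sequenced as 1 pooled library each. The methods come from the companion ultrasonication study, which gives them as nearly the same for cutting. Reads were trimmed by the authors with Trim Galore 0.5.0 and aligned with HISAT2 2.1.0 against SolTub 3.0. SeqMonk then counted uniquely aligned reads over the exons of each gene, and the authors deposited log2 RPM values. Genes without reads stand in the deposited log2 values at 0.9 of 1 read. From these values the reads per gene were recovered. Reads summed over genes came to 67314360 (uncut) and 60081924 (cut), more than the scaling totals. Counting both mates of a pair would make the intervals too narrow, so intervals with 1 read per pair were tried.

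Single values have exact Poisson intervals and ratios exact Clopper-Pearson intervals. With 1 library per condition, no p-value was computed. The genes named are the members, the other lipid transfer genes, the DC2.15-like genes, those of the surface lipid and organ lists, and the nearest neighbours of the members. Lists were made by name from the companion study's annotation. The members and lists were chosen with earlier results of these data known. RefSeq (SolTub_3.0 assembly) gave names for 13 of the 16 lipid transfer and ABCG11-like genes through their protein matches. Libraries of the ultrasonication experiment were not analysed here. The rule of size and the intervals were tested on simulated reads that held counting error only. That test does not cover variation between plants or libraries. Alternatives covered the read minimum, the size of difference, the pseudocount, the scaling and the interval. Intervals came from scipy 1.17.1 (with numpy 2.4.6), tables from pandas 2.3.3 and plots from matplotlib 3.10.9, all under Python 3.11.15.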

Additional observations from a re-analysis of the deposited data

How the results depend on the processing

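Both members called lower, nsLTP-like and lipid transfer protein, stayed called under all alternatives for the read minimum, the size of the difference, the pseudocount and the scaling. Of the members called higher, the ABCG11-like gene stayed called, while the count went from 2 to 1 with a minimum of 200 reads, a difference of at least 3 or log2(RPM + 1), where PGSC0003DMG401031237 was at 1.40. On that scale the ABCG11-like gene was at 3.68, lipid transfer protein at -2.83 and nsLTP-like at -4.20. Among the lipid transfer family, 2 genes were called higher. There were 0 with a minimum of 200 reads, with a difference of at least 3 or on the log2(RPM + 1) scale, 4 with a difference of at least 1 or with a counting interval beyond 2-fold, and 1 with the overlapping pair counted once, an alternative chosen after seeing the data. The lower genes went from 3 to 5 without a read minimum, as PGSC0003DMG400002471 and PGSC0003DMG400012837 entered, both at differences set by the value deposited for 0 reads. Scaling by the median ratio, which moved every difference by 0.33, changed the sign of 2 of the 16 genes, and scaling by the upper quartile, the reads summed over genes, or log2(RPM + 0.1) that of 0. The median ratio moved the calls over all genes from 1789 higher and 1595 lower to 2216 and 1099, so that the share of higher genes went from 52.9% to 66.8%. With 1 read per pair counted, the interval of the ABCG11-like gene began at 5.61, that of lipid transfer protein ended at -4.49, and that of PGSC0003DMG401031237 ran from 1.54 to 3.74. The limit set by depth is 3 reads per library. No paired analysis was possible because there was only 1 uncut and 1 cut library.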
